A study of Mus musculus with 24 samples.

Results

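Circular RNAs with the longest genomic span were described in mouse cardiac fibroblasts. The span of a circular RNA is the distance in the genome, introns included, from one side of its back-splice junction to the other. At such a junction a later exon is spliced backwards onto an earlier exon of the same gene. Of the 1717 circular RNAs in the authors' table, 430 spanned at least 13995 bp, the 75th percentile, and these are called long circles here. They came from 305 of the 1187 host genes. The study compared male C57BL/6J mice that had transverse aortic constriction (TAC), a tied narrowing of the aortic arch that loads the left ventricle with pressure, with sham mice that had the same operation without the ligation. Surgery was at 8 weeks of age, and fibroblasts were taken from perfused hearts 1, 4 or 8 weeks later. The 1-week groups have 4 libraries each, the 4-week groups have 5 (sham) and 4 (TAC), and the 8-week groups have 4 (sham) and 3 (TAC). The sources used here give no genotype beyond the strain, no sort on cell type, and do not say whether a library came from 1 mouse, so that p-values measure the spread between libraries, which may be partly technical.

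A circular RNA forms when the spliceosome joins a splice donor to an acceptor that lies upstream of it. Inverted repeats in the flanking introns and RNA-binding proteins that bring the introns together are known to favour this join. The closed molecule has no free ends and resists exonucleases, so it is usually stable, and the introns between its exons are in most cases spliced out. A junction read shows that the 2 ends were joined. It does not show which of the annotated exons between them are in the molecule, so exon numbers and summed exon lengths below are those of the annotated transcript.

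The back-splice junctions of 9 long circles are shown because the comparisons or the account of abundance and span below turn on them. Each is 50 bases from the GENCODE transcript, 5′ to 3′ on the RNA strand. Lower case letters are the last 25 bases of the downstream exon and capitals are the first 25 bases of the upstream exon to which it was joined. The Ttn pair shares its donor exon and differs in the capitals. The first 3 were lower in TAC libraries in the average over the times, the Ttn pair at chr2:76857904-76881839 and chr2:76857904-76884197 on the minus strand and Cpeb3 at chr19:37044522-37068291 on the minus strand (build mm10):
Ttn exons 85 to 118: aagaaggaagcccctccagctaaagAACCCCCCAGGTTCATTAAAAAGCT
Ttn exons 84 to 118: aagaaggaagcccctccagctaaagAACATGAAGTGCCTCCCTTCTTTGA
Cpeb3 exons 8 to 10: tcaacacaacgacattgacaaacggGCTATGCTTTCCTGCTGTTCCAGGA
Another 3 passed the test at 1 week, Itgbl1 at chr14:123827752-123857579 on the plus strand, Gigyf2 at chr1:87364104-87380008 on the plus strand and Tlk1 at chr2:70770004-70786995 on the minus strand:
Itgbl1 exons 3 to 7: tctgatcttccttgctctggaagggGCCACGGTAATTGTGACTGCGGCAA
Gigyf2 exons 4 to 8: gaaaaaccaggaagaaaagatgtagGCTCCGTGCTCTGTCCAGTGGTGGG
Tlk1 exons 2 to 3: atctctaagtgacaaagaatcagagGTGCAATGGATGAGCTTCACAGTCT
The last 3 were the most abundant long circle, Rnf169 at chr7:99935162-99955540 on the minus strand, and the 2 longest whose exons are all coding, Cep112 at chr11:108664496-108808739 and Cpq at chr15:33249926-33381447, both on the plus strand:
Rnf169 exons 2 to 4: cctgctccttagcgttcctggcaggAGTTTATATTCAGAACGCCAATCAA
Cep112 exons 22 to 25: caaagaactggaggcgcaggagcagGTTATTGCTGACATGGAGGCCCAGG
Cpq exons 3 to 5: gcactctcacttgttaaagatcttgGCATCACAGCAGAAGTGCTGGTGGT
Over all long circles, 41.6% had G as the first base after the join, against 45.5% of the other circular RNAs. The last 2 bases before the join were AG in 54.9% of long circles and in 55.5% of the others. The exon side of the junction was therefore close in base composition in both sets.

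Long circles held more exons than shorter ones, but a long span was mostly intron. Both follow in part from the rule, since span is made up of the exons and introns between the ends. The spans ranged from 13995 to 258755 bp with a median of 23970.5 bp, and 277 of the 430 (64.4%) were at least 20000 bp. At least 50000 bp were spanned by 50 and at least 100000 bp by 13. The 3 just inside the threshold were Tanc1 exons 5 to 7 (14075 bp), Ltbp1 exons 10 to 15 (14016 bp) and Arhgap10 exons 15 to 18 (13995 bp), and the 3 just outside were Smad4 exons 5 to 10 (13983 bp), Dock8 exons 2 to 4 (13973 bp) and Unc13b exons 2 to 6 (13972 bp). Mean levels over the 24 libraries were 1.83, 1.52 and 3.40 normalized reads inside and 1.17, 1.15 and 6.95 outside, in the same order. The median number of exons was 4, against 2, 3 and 4 in the 3 shorter classes when all 1717 are divided by span into 4 classes of equal size. None of the long circles was a single exon, which would need an exon of at least 13995 bp. Neither was any in the class next in span. Of all 1717 circular RNAs 123 were, and 119 of these lay in the shortest class. There were 49 with 2 exons, 82 with 3, 87 with 4 and 212 with 5 or more, of which 16 had more than 10.

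Summed exon length varied much less than span. Summed exons had a median of 540 bases in the long circles, against 317.5, 374 and 482 in the shorter classes. Exons made up a median of 2.26% of the span, against 40.7%, 9.96% and 5.00% in the classes from the shortest up. A set of equal size chosen instead for the longest summed exons, at least 626 bases, also held 430 circular RNAs, and only 169 were in both sets (39.3% of each). Across all 1717, span and exon number had a Spearman rho of 0.64, and span and summed exon length one of 0.39. Within the 430 the values were 0.06 and 0.11. These correlations are across circular RNAs that share libraries and in part host genes, and are a description. They also follow in part from the measure, since span includes the exons. The largest exon content was in the giant sarcomere gene Ttn, with 35 and 34 exons and 6501 and 6213 bases in its 2 long circles. The smallest was in Dennd1a exons 11 to 12, with 148 bases in a span of 21465 bp. In 254 of the 430 (59.1%), a single annotated intron took up more than 50 percent of the span. This was close to the 60.5% over all circular RNAs. The shorter classes had 48.6%, 76.0% and 58.4% from the shortest up.

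**Figure D1:**
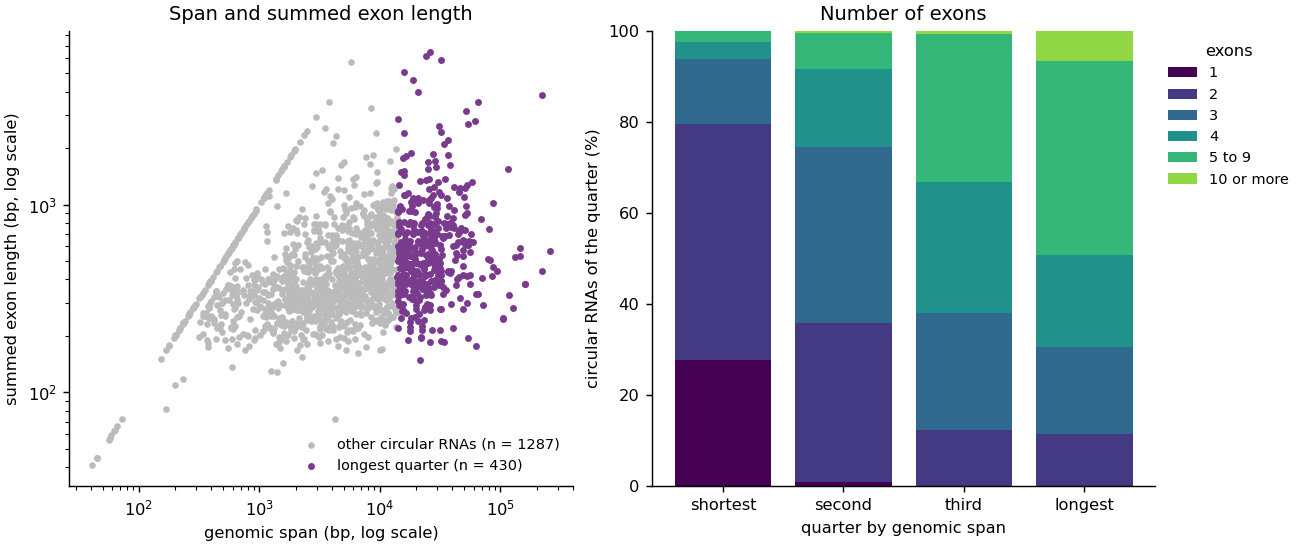
Left: genomic span against summed exon length for each circular RNA, both in bp on log scales, with the 430 long circles in purple and the other 1287 in grey. Right: percent of circular RNAs with 1, 2, 3, 4, 5 to 9 and 10 or more exons in each of the 4 span classes. Neither the long circles nor the class next in span include single-exon circles, which follows in part from the choice by span. Long circles have the largest share with 5 or more exons (212 of 430), while their summed exon lengths overlap those of the shorter circles.

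Long circles started at the second exon of the host more often than shorter ones did. The first exon of the circle was exon 2 in 186 long circles (43.3%), against 28.8%, 32.6% and 39.0% in the classes from the shortest up. Of the 430, 318 lay in coding exons alone, 89 joined coding and untranslated exons, 16 lay in untranslated exons alone and 7 came from noncoding transcripts. The 16 were of 26 such circular RNAs in the whole table, and 6 of them came from Atxn1, the gene of ataxin 1, which binds transcriptional repressors. Among the circles in coding exons alone, the exon length was a multiple of 3, so that the reading frame would continue through the junction, in 136 of 318 (42.8%). In the shorter classes this share was 37.0%, 35.0% and 32.4%. The median GC content of the exons was 48.6%, against 49.2% over all circular RNAs. Both ends fell on annotated exon boundaries of 1 host in 421 long circles and 1 end did in the other 9. In 2 of these 9 the ends lay in 2 annotated genes, as for F13a1 exons 9 to 15, with its other end in Gm47675. The host and span of these 2 are uncertain.

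The host genes of long circles were long. The median gene length was 148589 bp for the 305 hosts and 69188.5 bp for the other hosts, which follows in part from the rule, since a circle cannot span more than its gene. Of the hosts, 220 gave 1 long circle and 85 gave at least 2, which held 210 of the 430 between them. An end was shared with another long circle by 166. The long circles were spread over 20 chromosomes, from 7 of the 68 circular RNAs on chromosome 19 (10.3%) to 35 of 81 on chromosome 13 (43.2%) and 9 of 18 on chromosome X (50.0%). A shorter circle was also present in 151 hosts, and in 53 of these a long circle was the most abundant one.

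At least 4 long circles came from 7 hosts, among them Arhgap10 (8), Atxn1 (6), F13a1 (6), Glcci1 (4), Cnot2 (4) and Dennd1b (4). Within a host the circles usually shared 1 end and differed widely in level. All 6 Atxn1 circles were long and all began at exon 2, of which 4 used 1 acceptor and 2 used an acceptor 3 bases further on that no annotated exon has. With the annotated acceptor, exons 2 to 3 (104248 bp) had 22.0 normalized reads, exons 2 to 4 (161067 bp) 13.5, exons 2 to 5 (221461 bp) 5.68 and exons 2 to 6 (258755 bp, the longest span of all) 3.88, so the longer the span, the lower was the mean level. With the other acceptor the levels were 1.21 for exons 2 to 3 and 0.908 for exons 2 to 4. Glcci1, a gene named for its induction by glucocorticoids, had the opposite order at its ends: exons 2 to 6 was at 9.64 and exons 2 to 3 at 4.51, with 1.94 and 2.73 for exons 2 to 4 and 2 to 5. These orders are of means over 24 libraries and were not tested.

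Arhgap10, a GTPase-activating protein, had 8 long and 3 shorter circles over exons 9 to 19. Its most abundant was exons 14 to 18 at 9.68 normalized reads, and the other 7 long ones ranged from 1.19 to 3.51. F13a1, the A subunit of clotting factor XIII and a macrophage marker, had 4 that began at exon 9: those ending at exons 12, 13, 14 and 15 were at 1.44, 5.47, 6.35 and 1.02. Cnot2, a subunit of the CCR4-NOT deadenylase, used 2 acceptors 70 bases apart with each of 2 donors, at levels of 1.74 to 7.27. In Dennd1b, an exchange factor for Rab GTPases, a shorter circle of exons 6 to 9 was at 13.2, above all 4 long ones (1.05 to 6.72).

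**Figure D2:**
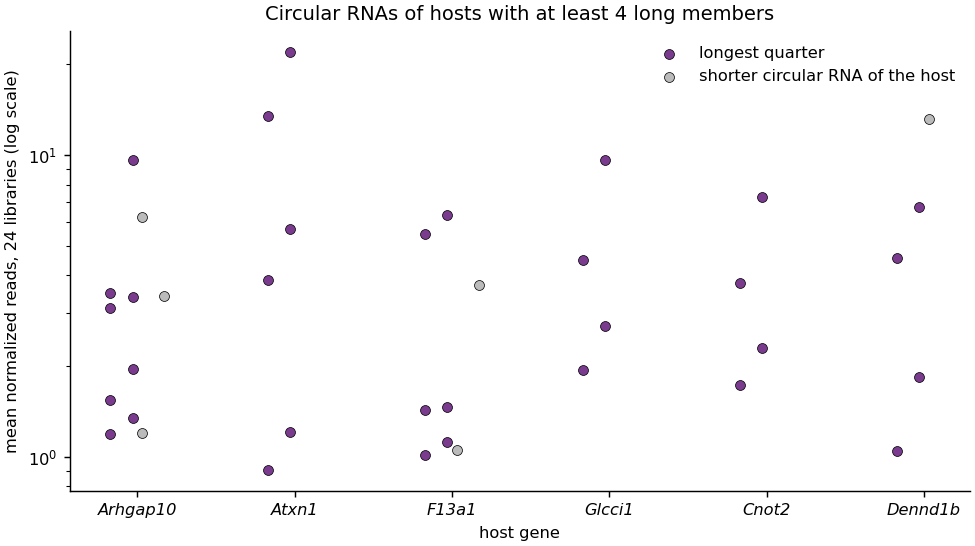
Mean normalized reads over 24 libraries, on a log scale, of every circular RNA of 6 hosts with at least 4 long circles. Purple points are long circles, grey points are shorter circles of the same host, and points are moved sideways only to separate them. Levels of long circles within a host differ from 1.19 to 9.68 in Arhgap10 and from 0.908 to 22.0 in Atxn1, and the most abundant circle of Dennd1b is a shorter one (13.2).

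Long circles were about as abundant as shorter ones. Values are junction reads that the authors scaled by a factor for each library, called normalized reads. The median of the mean level was 1.75 normalized reads for long circles and 1.89, 1.83 and 1.81 in the classes from the shortest up. The Spearman rho of span and level was -0.03 over all 1717 and -0.04 within the 430. Long circles with 2 exons had a median level of 2.34, and those with 3, 4, 5 to 9 and 10 or more exons 1.73, 1.55, 1.76 and 1.55. At least 1 read in all 24 libraries was found for 69 (16.0%), against 16.1% of all circular RNAs. Libraries had between 3595 and 9146 junction reads, so depth was low, and a long circle had a median of 42 reads over all libraries.

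The 10 most abundant long circles had 16.3 to 36.3 normalized reads. Rnf169, a ubiquitin-binding protein of the DNA damage response, led with exons 2 to 4 at 36.3 normalized reads. The next were Elf2 exons 2 to 4 (an ETS transcription factor, 28.8), Tlk1 exons 2 to 3 (a Tousled-like kinase of chromatin assembly, 27.6), Ttn exons 85 to 118 (25.3) and Rftn1 exons 5 to 7 (raftlin, a lipid raft protein, 24.8). Phf21a exons 2 to 6 (a subunit of a histone demethylase complex) was at 23.4, Atxn1 exons 2 to 3 at 22.0, Gigyf2 exons 4 to 8 at 21.4, Zfp827 exons 6 to 8 at 18.8 and Utrn exons 60 to 64 (utrophin, the dystrophin relative) at 16.3. Rnf169 stayed between 21.2 and 52.0 normalized reads in all 24 libraries, and its averaged log2 fold change was 0.05 (adjusted p = 0.976). Among the longest spans, levels ran from those of the Atxn1 circles given above to lower ones: Cep112 exons 22 to 25 (144244 bp), of a centrosomal protein, had 1.36 and Cpq exons 3 to 5 (131522 bp), of a secreted carboxypeptidase, 2.94.

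Together, long circles took 34210 of 138868 junction reads (24.6%), and this share did not differ between TAC and sham by more than the spread of libraries. At 1 week it was 19.2, 22.6, 27.9 and 25.6% in the sham libraries and 21.7 to 26.1% in the TAC libraries, with means of 23.8 ± 3.78% (SD, n = 4) and 24.3 ± 1.91% (n = 4). At 4 weeks the means were 24.1 ± 1.86% (n = 5) in sham and 25.1 ± 1.06% (n = 4) in TAC, and at 8 weeks 25.5 ± 1.85% (n = 4) and 24.7 ± 1.77% (n = 3). The groups overlapped at each time. With the higher percentile of span that was tried as an alternative threshold, the mean share was higher in TAC at each time. The means were 8.17 ± 0.66% in sham and 8.88 ± 0.91% in TAC at 1 week. They were 8.04 ± 0.78% and 9.11 ± 0.75% at 4 weeks, and 8.26 ± 0.65% and 8.87 ± 0.70% at 8 weeks. At 8 weeks the direction was opposite to that for all long circles. The groups overlapped there too, and the differences were not tested. More long circles were detected in TAC than in sham at 4 weeks, 378 ± 16.8 against 339 ± 22.3, but the TAC libraries were also deeper there, with 7980 ± 940 against 5666 ± 1188 junction reads. At an equal depth of 3595 reads the expected numbers were 298 ± 8.82 and 292 ± 10.7.

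**Figure D3:**
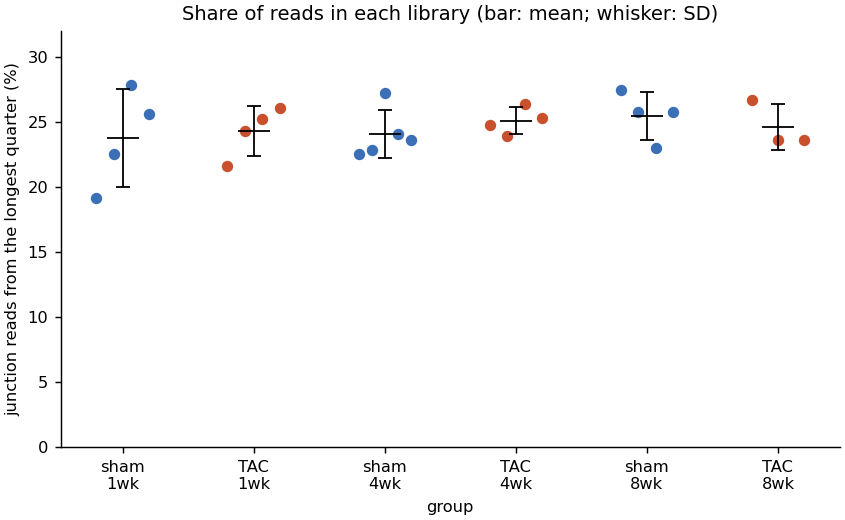
Percent of junction reads from long circles in each library (points, sham blue and TAC red), with group means (bars) and SD (whiskers). All libraries lie between 19.2% and 27.9%, and sham and TAC overlap at 1, 4 and 8 weeks.

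TAC and sham were compared for each circular RNA with limma over all 24 libraries, on log2(normalized reads + 0.5), with p-values adjusted over all 1717. Fold changes are on that scale, which understates the change of scarce circles, and a circle is said to have risen or fallen where the adjusted p was under 0.05. Taken as a set, long circles had medians close to those of the rest. Their median log2 fold change was 0.10 at 1 week, 0.18 at 4 weeks and 0.03 at 8 weeks, and that of the other 1287 circular RNAs was 0.02, 0.09 and 0.03. Positive values were found for 235, 263 and 222 of the 430 (54.7%, 61.2% and 51.6%), beside 51.9%, 56.4% and 51.4% of all circular RNAs. Without 1 sham library of 1 week, replicate 1, the 1-week median was -0.03.

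At 1 week, 4 long circles rose, those of Itgbl1, Tcf20, Gigyf2 and Nlrp5-ps, and 4 fell, those of Ttn, Ablim3, Tlk1 and Atxn1. That is 8 of 430, beside 1.46 percent of all circular RNAs called at this time (0.757 percent higher and 0.699 percent lower). The unadjusted p was under 0.05 for 49 (11.4%), beside 11.7 percent of all.

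The product of Itgbl1 is secreted and resembles part of the integrin beta chain. Its circle of exons 3 to 7 had no reads in the 4 sham libraries of 1 week, and 3.08, 1.92, 16.0 and 4.86 normalized reads in the TAC libraries. Every TAC library was above every sham library, and TAC was at least 6.83-fold higher against a floor of 3 reads over the sham group (fitted log2 fold change 3.39 ± 0.79 SE, adjusted p = 0.0075). At 4 weeks sham had 1.87, 1.57, 0, 1.02 and 0 and TAC 1.69, 2.20, 12.3 and 2.57, and at 8 weeks sham had 1.06, 3.30, 0.962 and 1.06 and TAC 7.18, 0 and 0.857. The groups overlapped at both later times, where 1 TAC library stood above the rest each time. The call at 1 week was lost without TAC replicate 3 (2.84, adjusted p = 0.0763). The change averaged over the 3 times passed narrowly (1.68 ± 0.46 SE, adjusted p = 0.0485, above the sham mean of its time in 9 of 11 TAC libraries) and was lost in 13 of the 24 fits that left out 1 library, with adjusted p up to 0.275 without 8-week TAC replicate 1. A pseudocount of 0.1 (2.52, adjusted p = 0.185) or a replicate block (1.55, 0.109) also ended it, and at that pseudocount the 1-week value was 5.57 (0.0247).

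Gigyf2, which represses translation together with a cap-binding protein, rose in exons 4 to 8. Sham libraries of 1 week had 8.79, 7.48, 15.0 and 10.3 normalized reads and TAC libraries 24.6, 28.8, 22.0 and 35.0. The groups did not overlap (10.4 ± 3.29 against 27.6 ± 5.69, SD, n = 4 each; log2 fold change 1.39 ± 0.36 SE, adjusted p = 0.0241). At 4 weeks both groups were near the 1-week TAC level, at 23.6 ± 6.97 (n = 5) and 28.1 ± 9.72 (n = 4). The difference between the TAC effects at 4 weeks and at 1 week did not pass the test (-1.15 ± 0.50, adjusted p = 0.56). The 1-week call was lost without sham replicate 2 (adjusted p = 0.0982), TAC replicate 2 (0.0649) or TAC replicate 4 (0.0917).

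Tcf20, a nuclear coregulator of transcription, and the pseudogene Nlrp5-ps also rose, each with overlap between the groups. Tcf20 exons 2 to 3 had 0, 1.25, 7.51 and 8.27 normalized reads in sham and 7.69, 8.63, 19.0 and 11.7 in TAC (2.04 ± 0.53 SE, adjusted p = 0.0239). This 2-exon circle has 5866 bases of exon, next to Ttn the largest content among the long circles. Nlrp5-ps exons 2 to 11 had 0, 0, 10.5 and 4.14 in sham and 9.23, 4.79, 12.98 and 10.7 in TAC (2.31 ± 0.62 SE, adjusted p = 0.0241). As a pseudogene it has relatives of similar sequence, and whether its reads could have come from them was not tested. Both calls rested on the 2 low sham libraries: without sham replicate 1, Tcf20 was at 1.21 (adjusted p = 0.306) and Nlrp5-ps at 1.67 (0.197), and without sham replicate 2 they were at 1.82 (0.0972) and 1.67 (0.234). Tcf20 was also lost without TAC replicate 3 (0.119) or 4 (0.0548), and Nlrp5-ps without TAC replicate 1 (0.0544), 3 (0.109) or 4 (0.0666). By limma-voom, a count-weighted form of the test, neither passed (adjusted p = 0.0638 for Tcf20 and 0.0586 for Nlrp5-ps).

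Tlk1 fell in exons 2 to 3, a circle of 191 bases of exon. Sham libraries of 1 week had 46.5, 44.9, 36.1 and 39.3 normalized reads and TAC libraries 12.3, 20.1, 16.0 and 18.5. This was the tightest of the 1-week differences, with no overlap (41.7 ± 4.85 against 16.7 ± 3.41, SD, n = 4 each; -1.31 ± 0.34 SE, adjusted p = 0.0239). At 4 weeks the sham libraries were spread from 7.86 to 45.1 and held the TAC range of 16.1 to 23.1. The 1-week call was lost without sham replicate 2 (adjusted p = 0.0803), TAC replicate 1 (0.0744) or TAC replicate 3 (0.0580).

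Ablim3, an actin-binding LIM protein, fell in exons 3 to 7 (chr18:61839690-61857185, minus strand). Sham libraries had 8.79, 6.23, 15.0 and 10.3 normalized reads and TAC libraries 3.08, 3.83, 0 and 0.973. The groups did not overlap (-2.46 ± 0.59 SE, adjusted p = 0.00949), and the call was lost without TAC replicate 3 (-1.84, adjusted p = 0.132). Atxn1 exons 2 to 3 had 42.7, 26.2, 15.0 and 17.6 in sham and 9.23, 21.1, 8.98 and 2.92 in TAC. Here 1 TAC library lay within the sham range (-1.39 ± 0.37 SE, adjusted p = 0.0241). The Atxn1 call ended when sham replicate 1 (0.126), sham replicate 2 (0.0845), TAC replicate 3 (0.0580) or TAC replicate 4 (-0.92, 0.311) was left out, and by limma-voom (0.0667). The Atxn1 circle of exons 2 to 4 went the same way, from 16.3, 22.4, 13.5 and 19.6 in sham to 9.23, 6.71, 7.99 and 2.92 in TAC, without overlap, and did not pass the test (-1.44, adjusted p = 0.0535). It passed at a pseudocount of 0.1 (adjusted p = 0.0473), with a mean of at least 5 reads (0.0112), with a replicate block (0.0267) and in 4 fits that left out 1 library. The 2 longer Atxn1 circles with the same acceptor had log2 values of -0.33 (exons 2 to 5, adjusted p = 0.881) and -0.09 (exons 2 to 6, 0.989).

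These calls at 1 week used a spread estimated over all 24 libraries. When only the 8 libraries of 1 week were fitted, none of the 8 passed, with adjusted p from 0.0569 for Itgbl1 to 0.194 for Atxn1.

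Ttn was the only host with a long circle called at more than 1 time. Titin is the giant elastic protein of the muscle sarcomere, a product of muscle cells. Exons 85 to 118 had 17.6, 33.7, 58.6 and 15.5 normalized reads in sham and 12.3, 6.71, 9.98 and 7.78 in TAC at 1 week, where it fell (-1.55 ± 0.36 SE, adjusted p = 0.0075). The groups did not overlap, and the call was lost without sham replicate 2 (0.0611) or 3 (-1.18, 0.0960). At 4 weeks sham had 29.9, 23.6, 51.2, 31.6 and 20.3 and TAC 12.7, 13.2, 4.36 and 14.1 (-1.51 ± 0.34 SE, adjusted p = 0.0232). At 8 weeks sham had 68.1, 36.3, 26.9 and 48.8 and TAC 23.9, 23.5 and 17.1, which did not pass (-0.98 ± 0.39 SE, adjusted p = 0.753) although all 3 TAC libraries were below all 4 sham libraries. The averaged change was -1.34 ± 0.21 SE (adjusted p = 6.42e-07), with all 11 TAC libraries below the sham mean of their time.

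Exons 84 to 118, with 1 more exon and the same donor, was at a lower level. Sham libraries had 15.9, 12.6, 19.1, 9.16 and 6.45 normalized reads at 4 weeks and TAC libraries 3.38, 1.47, 0.726 and 4.50, without overlap (-2.23 ± 0.53 SE, adjusted p = 0.0274). The averaged change was -1.71 ± 0.33 SE (adjusted p = 0.000204), again with all 11 TAC libraries below the sham mean of their time, and the values at 1 and 8 weeks were -1.45 (adjusted p = 0.189) and -1.46 (0.753). These 2 were the only long circles called at 4 weeks, beside 0.116 percent of all circular RNAs, and were also the only circular RNAs of any span called then. An unadjusted p under 0.05 was found for 31 long circles at 4 weeks (7.21%), beside 7.98 percent of all. Both 4-week calls were lost without sham replicate 1 (adjusted p = 0.0628 and 0.127 for exons 85 to 118 and 84 to 118), sham replicate 3 (0.0777 for both), sham replicate 4 (0.0548 for both) or TAC replicate 3 (0.540 and 0.484), and exons 84 to 118 also without TAC replicate 2 (0.129). A pseudocount of 0.1 in place of 0.5 ended both as well (0.0648 and 0.0901). Both averaged calls passed in all 24 fits that left out 1 library. Titin has many exons of similar sequence, and how reads were divided between the pair was not tested.

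Markers of heart muscle cells were summed beside the Ttn circles. The cardiomyocyte list of 21 genes had 11 circular RNAs of 6 genes in the table, and the sarcomere genes Myh6, Myh7, Actc1, Tnnt2 and Tnni3 had none. Their summed level was 38.3 to 135 normalized reads in sham and 24.3 to 33.8 in TAC libraries at 1 week, 39.6 to 125 and 17.4 to 41.1 at 4 weeks, and 57.7 to 123 and 44.6 to 51.5 at 8 weeks. Without Ttn, the 8 others summed to 20.7 to 49.6 in sham and 13.6 to 18.5 in TAC at 1 week, 6.54 to 49.5 and 10.9 to 20.6 at 4 weeks, and 19.2 to 31.8 and 18.9 to 23.9 at 8 weeks. The TAC libraries were thus below all sham libraries at 1 week with and without Ttn, and overlapped them at 4 weeks in both sums. At 8 weeks they were below all sham libraries with Ttn and overlapped them without it. In bulk libraries, fewer cells of a type and less RNA per cell cannot be told apart, and the part of these markers in the other calls was not tested. The list held 7 long circles, 2 each of Ttn, Ryr2 and Mlip and 1 of Slc8a1. All 7 averaged changes were negative, with a median of -0.68 against 0.06 over all 1717 circular RNAs. Only the 2 of Ttn passed: those of Ryr2, the calcium release channel of the sarcoplasmic reticulum, were at -0.68 (exons 24 to 29) and -0.15 (exons 24 to 27), Slc8a1 exons 3 to 9, of the sodium-calcium exchanger, at -0.51, and Mlip exons 5 to 10 and 6 to 11, of a muscle protein that binds lamins, at -1.61 (adjusted p = 0.0751) and -0.32.

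**Figure D4:**
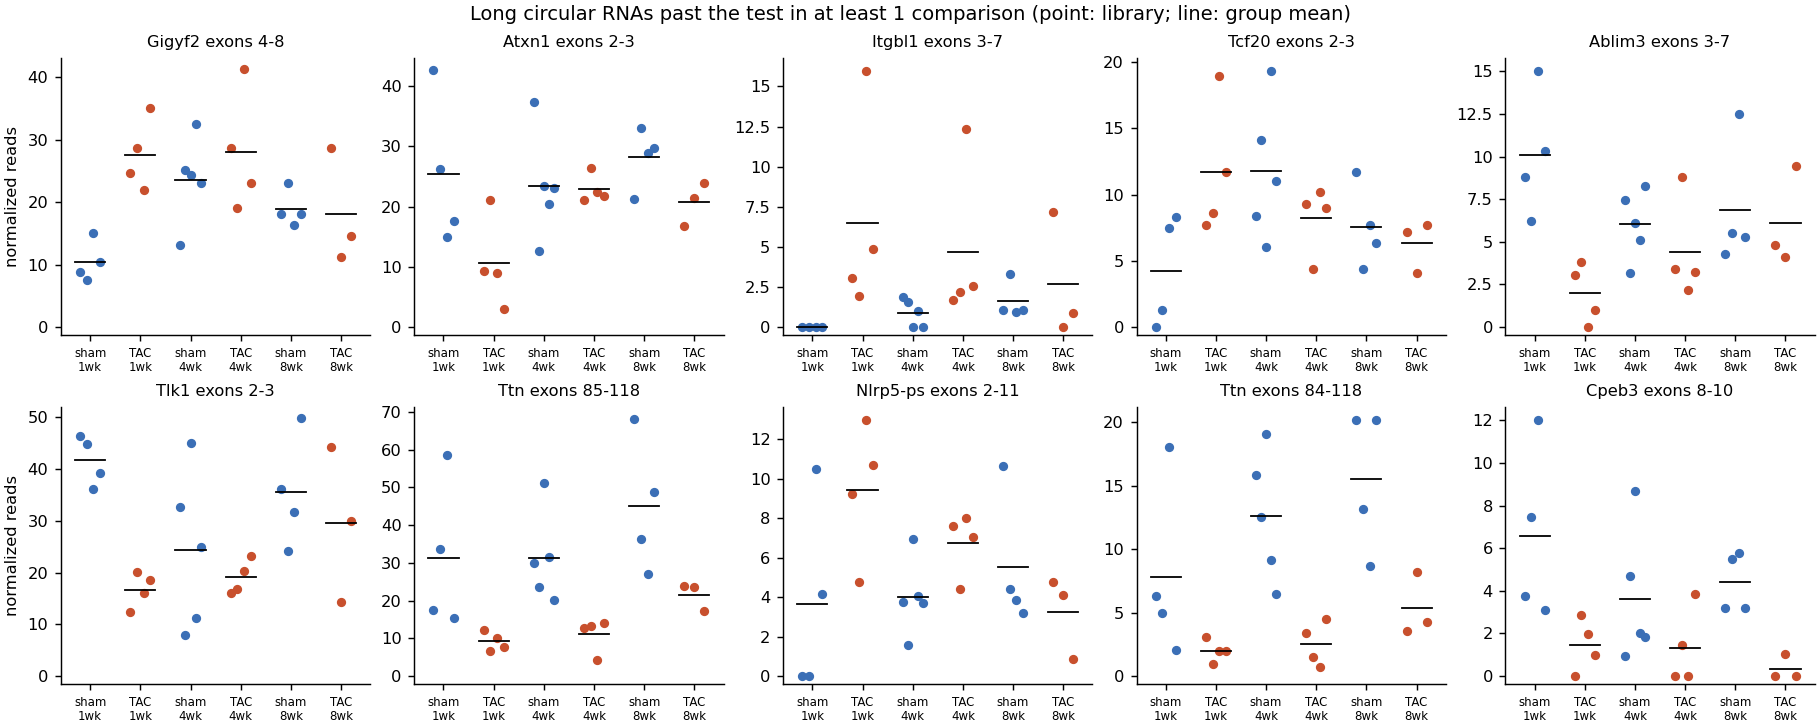
Normalized reads in each library (points, sham blue and TAC red, by week) for the 10 long circles that passed the test at 1 week, at 4 weeks or in the average over times. Lines are group means and each panel has its own axis. The 2 Ttn circles are lower in TAC at each time. Gigyf2, Tlk1 and Atxn1 exons 2 to 3 passed the test at 1 week and overlap at 4 and 8 weeks. For Atxn1, 1 TAC library also lies within the sham range at 1 week.

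Cpeb3 binds the 3′ ends of messenger RNAs and holds back their translation. Its circle of exons 8 to 10 fell in the average over times. Sham libraries had 3.77, 7.48, 12.0 and 3.10 normalized reads at 1 week and TAC libraries 0, 2.88, 2.00 and 0.973. The groups did not overlap at 1 week or at 8 weeks, where sham had 3.19, 5.50, 5.77 and 3.18 and TAC 0, 1.02 and 0, and they overlapped at 4 weeks (0.934, 4.71, 8.68, 2.04 and 1.84 against 0, 1.47, 0 and 3.85). The averaged change was -2.05 ± 0.43 SE (adjusted p = 0.00148), with 10 of 11 TAC libraries below the sham mean of their time, and it passed in all 24 fits that left out 1 library. At a pseudocount of 0.1 it was -3.15 (adjusted p = 0.00958). The changes at 1, 4 and 8 weeks did not pass on their own (-1.99, -1.46 and -2.71, adjusted p = 0.170, 0.591 and 0.459). In all, 4 long circles passed in the average, the 2 of Ttn and Cpeb3 lower and Itgbl1 higher, beside 0.641 percent of all circular RNAs (0.349 percent higher and 0.291 percent lower). The unadjusted p was under 0.05 for 41, beside 9.9 percent of all.

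At 8 weeks limma called no long circle and 0.0 percent of all circular RNAs. An unadjusted p under 0.05 was found for 28 long circles (6.51%), beside 6.06 percent of all, and limma-voom also called 0. The smallest p-values belonged to Cpeb3, to Mlip exons 5 to 10 and to Asxl2 exons 2 to 5, a cofactor of a histone deubiquitinase. Mlip had no reads in the 3 TAC libraries and 1.06, 2.20, 5.77 and 5.30 normalized reads in sham, at least 3.50-fold lower in TAC against a floor of 3 reads over the group (adjusted p = 0.459). Asxl2 also had no reads in TAC and 6.38, 2.20, 1.92 and 2.12 in sham (at least 3.08-fold lower, adjusted p = 0.459). Neither group pair overlapped. Zfp827 exons 5 to 8 had the smallest p among the higher ones (2.22, adjusted p = 0.753), with 0, 0, 0 and 1.06 in sham and 2.39, 4.09 and 1.71 in TAC, while the shorter and more abundant circle of the same gene that begins 1 exon later had a log2 value of 0.10 (adjusted p = 0.984).

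**Figure D5:**
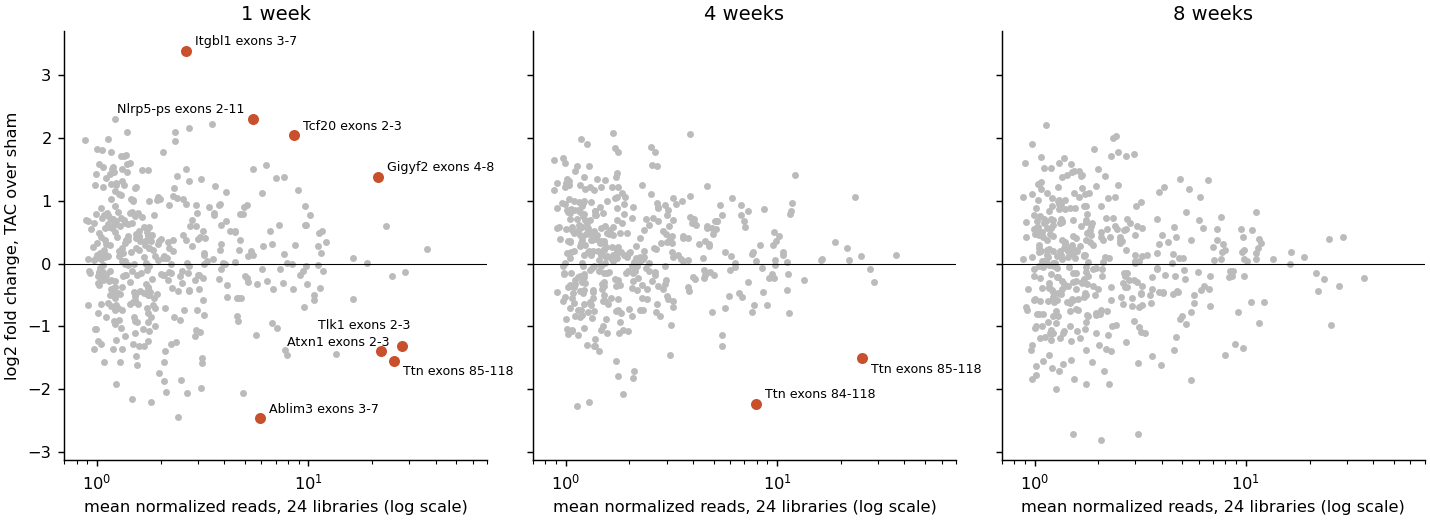
Mean normalized reads over 24 libraries (log scale) against the log2 fold change of TAC over sham at 1, 4 and 8 weeks for the 430 long circles. Red points passed an adjusted p of 0.05 in limma, 8 at 1 week, 2 at 4 weeks and 0 at 8 weeks, and grey points did not. The 2 at 4 weeks are both Ttn circles and lie below 0.

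At 4 weeks the circles next to Ttn in the order of p were mostly higher in TAC and did not pass. Usp3 exons 2 to 8, of a deubiquitinase of histone H2A, had 4.67, 4.71, 9.55, 5.09 and 6.45 normalized reads in sham and 11.8, 11.7, 22.5 and 23.1 in TAC, without overlap (1.41 ± 0.44 SE, adjusted p = 0.223). Fancl exons 2 to 7, of the ubiquitin ligase of the Fanconi anaemia pathway, had 0 to 2.76 in sham and 2.93 to 6.76 in TAC (2.07 ± 0.66 SE, adjusted p = 0.281). Phf21a exons 2 to 6 had a mean of 18.3 ± 11.2 (SD, n = 5) in sham and 33.3 ± 8.95 (n = 4) in TAC with overlap (1.07, adjusted p = 0.281). Usp3 and Phf21a did pass when only the 9 libraries of 4 weeks were fitted (adjusted p = 0.0326 for both), and Phf21a also by limma-voom (1.12, adjusted p = 0.0237). Without sham replicate 1 the value of Phf21a was 0.66 (adjusted p = 0.633). F13a1 exons 6 to 8 was the one lower in TAC, with 0.921 to 5.61 in sham and 0 to 0.734 in TAC (-2.27, adjusted p = 0.281).

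Whether the TAC effect differed between times was tested directly, and no long circle passed for 4 against 1 week, 8 against 1 week or 8 against 4 weeks, with 0.0 percent of all circular RNAs called in each. Unadjusted p-values under 0.05 were found for 33, 39 and 32 long circles, beside 8.04, 8.62 and 6.35 percent of all. The circles called at 1 week therefore were not shown to respond differently later: the difference of 8 weeks from 1 week was -3.54 for Itgbl1 (adjusted p = 0.253), -1.54 for Gigyf2 (0.279), -2.25 for Tcf20 (0.279), -3.08 for Nlrp5-ps (0.150), 2.33 for Ablim3 (0.301), 0.95 for Tlk1 (0.574) and 0.96 for Atxn1 exons 2 to 3 (0.604). For Ttn exons 85 to 118 it was 0.57 ± 0.53 SE (0.787).

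Host genes were also grouped by function, which placed 99 of the 430 long circles in at least 1 of 12 lists. No list had more than 2 calls in any comparison. The values that follow are medians of the averaged log2 fold change, beside 0.06 over all circular RNAs. The 22 long circles of small GTPase regulators, from 10 hosts such as Arhgap10 and Dock4, had a median of 0.32, with 12 positive values and none called. The 19 of chromatin and transcription genes had 0.03, with Tcf20 called at 1 week, and the 11 of RNA-binding and splicing genes had 0.12, with Cpeb3 called in the average. Matrix and adhesion genes had 9, of Tns1, Tns3, Lama2, Itgbl1, Ptk2, Lpp and Adam10, at a median of -0.02 with 4 positive and Itgbl1 called. The cytoskeleton list had 9 at -0.26 with Ablim3 called, and the kinase list 9 at 0.28 with Tlk1 called. TGF-beta, BMP and Smad genes, the pathway best known for fibroblast activation, had 2, Ltbp1 exons 10 to 15 and Smad4 exons 2 to 8, at 0.04 (adjusted p = 0.986) and 0.39 (0.841). The leukocyte list had 11 from F13a1, Fli1, Adgre1, Mertk and Vav3, at -0.20 with 4 positive and none called. Endothelial and mural markers had no long circle. Of the 14 fibroblast genes listed, Dcn, Fbn1, Lamc1, Nav1 and Svep1 had a circular RNA. Pdgfra, Tcf21, Col1a1, Col1a2, Col3a1 and Postn were among those with none in the table. Over all spans, the 8 circular RNAs of the fibroblast list summed to group means of 14.7 to 27.4 normalized reads. The 25 of the leukocyte list summed to group means of 118 to 156. What part of a library each cell type made up was not tested. These junctions therefore give only a partial check of the cell type. The 1 long circle of these fibroblast genes was Nav1 exons 3 to 5 (0.61, adjusted p = 0.704).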

How the data were processed

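FastQC, Trimmomatic, STAR and the build mm10 are named in the submitters' processing notes. How circular RNAs were filtered and how reads were normalized is, like the settings, not given in the sources used here. Per circular RNA and library, the deposited signal is normalized: after an offset of 0.01 is removed, 100% of the values are whole multiples, within 0.01 of a read, of a library's step (0.642 to 1.57), and values are given without the offset. Columns were matched to samples by the descriptions, and replicates are numbered as in the titles. Spans were computed as end minus start plus 1 over 1717 rows. Exons come from GENCODE release M21, taking the transcript whose splice sites match the junction ends best. The test was limma 3.58.1 (R 4.3.3) with an intensity trend, 6 groups and no covariate, tested on simulated data first, with Benjamini-Hochberg adjustment over all 1717. Named are circles that passed a test, the 6 smallest p-values at each time, the 10 most abundant, the 10 longest, the threshold neighbours, hosts with at least 4 and marker genes. The members and lists were chosen with earlier results of these data known. Alternatives were pseudocounts of 0.1 and 1, trimmed-mean (TMM) and total-read scaling, a mean of at least 5 reads, limma-voom, a replicate block, leaving out each library, fitting 1 time alone, summed exon length in place of span, a 90th percentile, and the longest transcript. Some circles that this rule names are not reported here. Floors cover counting error only.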

Additional observations from a re-analysis of the deposited data

Results flagged for a closer look

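In the groups of 4 or 5 libraries, 5 single values of the 10 called long circles stood apart from the rest of their group by Dixon's criterion, of 54 groups of values examined, the share of reads from long circles included (chance gives about 1 in 20). Itgbl1 exons 3 to 7 had 12.3 normalized reads in 4-week TAC replicate 3 against 1.69 to 2.57 in the others, and 3.30 in 8-week sham replicate 2 against 0.962 to 1.06. Ttn exons 85 to 118 had 4.36 in 4-week TAC replicate 3 against 12.7 to 14.1. Ablim3 exons 3 to 7 had 12.5 in 8-week sham replicate 3 against 4.26 to 5.50, and Nlrp5-ps exons 2 to 11 had 10.6 in 8-week sham replicate 1 against 3.18 to 4.40. The same library, 4-week TAC replicate 3, had the high Itgbl1 and the low Ttn value.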

How the results depend on the processing

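At 1 week the count of called long circles was 8, and it was 5 by limma-voom (Atxn1, Tcf20 and Nlrp5-ps were lost) and 0 with the libraries of that time alone. Leaving out single libraries gave 2 to 9; the lowest counts came when sham replicate 2 (count 2), TAC replicate 3 (count 3) or TAC replicate 4 (count 4) was dropped. At 4 weeks the count of 2 became 0 at a pseudocount of 0.1, 4 with that time alone, 3 by limma-voom (Phf21a was added) and 0 to 2 with a library left out; at 8 weeks it was 0 in every fit. The averaged count of 4 became 2 with a mean of at least 5 reads, which only 69 long circles reach, and 3 to 6 with a library left out. For the difference between 8 weeks and 1 week the count of 0 became 1 at a pseudocount of 1 and 1 by limma-voom, both times the Lncpint circle of exons 3 to 4 with a span of 14674 bp, and 0 to 4 with a library left out; the highest was without 1-week sham replicate 3. The other 2 differences between times gave 0 in every fit. Except where stated, the cause of these changes was not tested. With the replicate number of the titles as a block the counts were 9, 2 and 0 at 1, 4 and 8 weeks. They were 3 in the average and 2 for 8 against 1 week. Correlations of same-numbered libraries ran from -0.08 to 0.14. Such low values cannot show whether libraries were paired or shared a batch. The numbers in the column names differ in part from those of the titles and were not tried as a block. The 4-week median log2 fold change of 0.18 was 0.31 and 0.13 at pseudocounts of 0.1 and 1, 0.12 with a mean of at least 5 reads and 0.26 with TMM scaling, where the other circular RNAs were at 0.20, 0.05, 0.02 and 0.17. With a library left out the medians were -0.03 to 0.19, 0.13 to 0.24 and -0.00806 to 0.0485, and the TAC minus sham difference in share was -1.02 to 1.88, 0.613 to 1.84 and -1.87 to -0.188 percentage points at 1, 4 and 8 weeks. The Mlip circle of exons 5 to 10 passed in the average at a pseudocount of 1 (adjusted p = 0.0415) and by limma-voom (0.0181). The median summed exon length of 540 bases was 538.5 with the longest transcripts. For the circles called or next in p at a time, 692 refitted values kept their direction and side of the threshold, 60 lost and 3 gained a call, and none changed sign. Over all 430 and all alternatives, 24 calls of TAC against sham that were absent from the report's fit were gained. Each fit was counted separately, so these are not 24 circles: Mlip and Atxn1 exons 2 to 4 each count several times. The number over all circular RNAs is not given here. The set of equal size with the longest summed exons had 6, 2, 0 and 5 calls at 1, 4 and 8 weeks and in the average. The planned edgeR and DESeq2 alternatives were not run. limma-voom on the recovered reads was the count-based alternative that was run. Long circles had a median of 42 reads over 24 libraries. The simulated data held changes of a single size, so the smallest change that this depth can show was not tested.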

Other observations

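Lncpint, a long noncoding RNA induced by p53, gave 3 of the 7 long circles from noncoding transcripts. Its circle of exons 3 to 4 with a span of 14674 bp (chromosome 6, 31166476 to 31181149) had opposite differences early and late. At 1 week sham libraries had 2.49 to 3.77 normalized reads and TAC libraries 0 to 0.959, without overlap, and at 8 weeks sham had 0 to 2.20 and TAC 3.43 to 7.18, also without overlap. The difference of the TAC effect between these times did not pass limma (log2 difference 4.48 ± 1.12 SE, adjusted p = 0.0557), and passed at a pseudocount of 1 (3.44, adjusted p = 0.0472) and by limma-voom (4.30, adjusted p = 0.0495). It was chosen after its values were seen.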
